A study of Mus musculus with 56 samples.

Results

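The microRNAs of mouse liver were followed over the first 3 days after Cre was delivered to remove the miR-122 gene, while miR-122 itself still made up more than 50% of the microRNA reads in every liver. The samples are 6 of the 42 small RNA libraries (56 libraries in all) and were chosen by their labels, not by their values. They are the livers of 3 mice taken at day 1, day 2 and day 3 (1 mouse each, treated here as 1 early group) and of 3 uninjected mice, A, B and C, taken as day 0. All 6 mice were adults of the 129Sv/J background with loxP sites on both sides of miR-122. The early mice had received an rAAV8 vector through the tail vein that carries Cre under the Ef1a promoter, and the day 0 mice had received nothing. The 3 mice taken at day 7 after the same vector were used for comparison. Because Ef1a is active in most cell types, the promoter does not limit Cre to hepatocytes. No group had a vector without Cre or a sham injection, so that the injection, the vector, Cre and the day cannot be told apart in the comparisons. The labels do not give their sex.

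A microRNA is cut from a hairpin transcript and loaded into an Argonaute protein, where its seed, bases 2 to 8 from the 5′ end, pairs with messenger RNAs and lowers their output. microRNAs with the same seed share most targets and are counted as a family. miR-122 is the dominant microRNA of hepatocytes. rAAV8 enters mouse hepatocytes efficiently, but its genome must reach the nucleus and become double-stranded before Cre is made, and mature microRNAs outlast their gene. Several other liver microRNAs are known to answer stress: miR-34a is a direct target of p53, and miR-21, miR-146a and miR-155 are induced in inflammation.

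The mature sequences of the microRNAs on which the results turn are given first, since several are near copies and the deposited table lists hairpins without separating their arms. Each is the arm known as the main product, from RefSeq (GRCm38.p6), written 5′ to 3′ with the seed in capitals. The first pair shares the seed of the p53-responsive miR-34 family, the second entry stands for itself, and the pairs after it are near copies within the families of miR-26, let-7 and miR-103.
miR-34a-5p: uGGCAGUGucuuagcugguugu
miR-34b-5p: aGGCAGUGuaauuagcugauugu
miR-342-3p: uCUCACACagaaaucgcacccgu
miR-26a-5p: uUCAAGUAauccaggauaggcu
miR-26b-5p: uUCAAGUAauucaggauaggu
let-7a-5p: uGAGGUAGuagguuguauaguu
let-7f-5p: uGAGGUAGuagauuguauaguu
miR-103-3p: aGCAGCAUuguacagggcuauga
miR-107-3p: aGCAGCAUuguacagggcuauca
miR-29a-3p: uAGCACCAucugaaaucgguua
miR-21a-5p: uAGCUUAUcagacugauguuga
miR-103-3p and miR-107-3p differ near the 3′ end only, and let-7a-5p and let-7f-5p in the middle. The authors allowed mismatches when they aligned reads, so the split of reads between such copies is uncertain and their sums are given as well.

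The positions are those of the GENCODE annotation (build NCBIM37). The miR-34a hairpin lies at chr4:149442563-149442664, in no other annotated gene. miR-342 lies at chr12:109896830-109896928 in an intron of Evl, which encodes an actin regulator. miR-26b lies at chr1:74440884-74440968 in an intron of the phosphatase gene Ctdsp1, and miR-107 at chr19:34895177-34895263 in an intron of Pank1, which encodes a kinase of coenzyme A synthesis. miR-21 lies at chr11:86397569-86397660, over an exon of Vmp1.

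Small RNA libraries held 535977 to 808302 microRNA reads, of which 125218 (day 1) to 276672 (day 3) were not miR-122. Levels are given in RPM, here reads per 1000000 reads other than miR-122. A microRNA with no read could have had up to 3, which is 10.8 RPM in the day 3 library and 24.0 RPM in the day 1 library. In bulk tissue, fewer cells of a type and less RNA per cell cannot be told apart.

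The miR-122 share of all microRNA reads was 73.3%, 59.2% and 66.7% in the day 0 mice and 77.8%, 61.2% and 52.3% at days 1, 2 and 3. Day 1 lay above all day 0 mice, day 2 among them and day 3 below them. The means were 66.4 ± 7.06% (SD, n = 3) and 63.8 ± 12.9% (SD, n = 3), a log2 ratio of −0.06 (exact two-sided permutation p = 0.8, where the smallest possible is 0.1). The direction of this difference depends on single mice, since the log2 ratio was 0.019 without day 0 mouse A and 0.066 without the day 3 mouse. At day 7 the shares were 55.4%, 48.9% and 51.6%. Their mean of 52.0 ± 3.31% (n = 3) was 0.815 times that of days 1 to 3 (exact permutation p = 0.2). miR-122 identifies the tissue as liver in all 6 libraries. The other hepatocyte-enriched entries (miR-192, both copies of miR-194, miR-148a and miR-802) summed to 33192 to 85272 RPM at day 0 and 35844 to 81413 RPM at days 1 to 3.

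**Figure D1:**
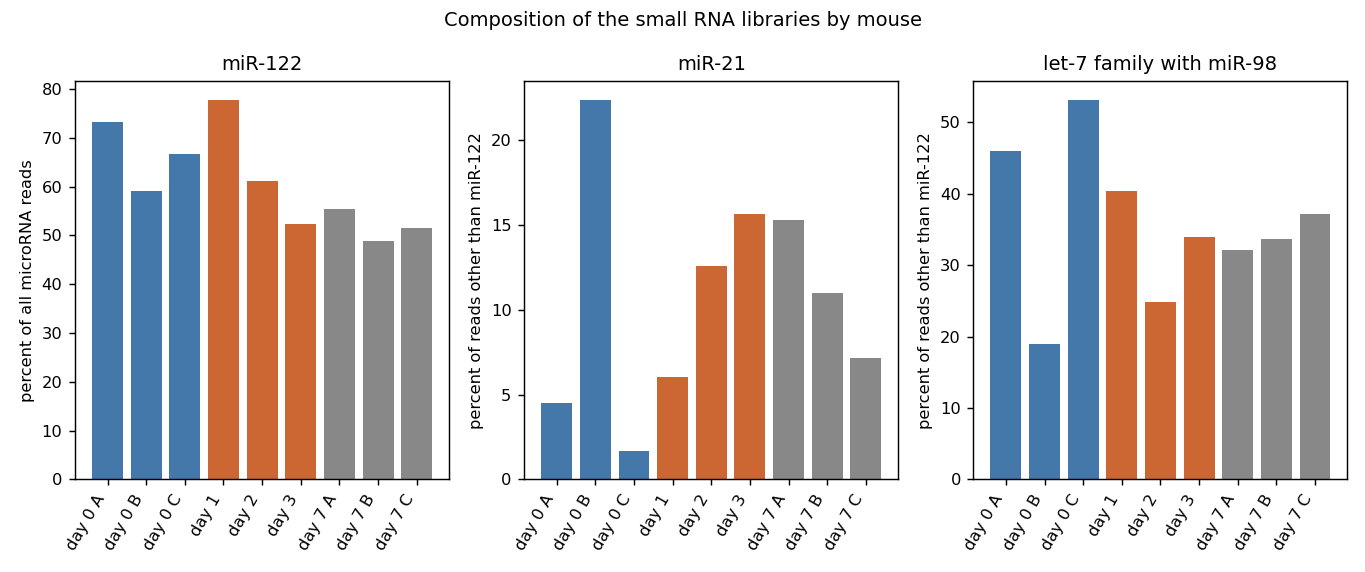
Share of miR-122 among all microRNA reads (left), and of miR-21 (middle) and the let-7 family with miR-98 (right) among reads other than miR-122, in percent, with 1 bar per mouse for day 0 (blue), days 1 to 3 (orange) and day 7 (grey). Day 0 mouse B has 22.4% miR-21, against 4.54% and 1.70% in mice A and C, and the lowest let-7 share of the 9 mice.

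Day 0 mouse B stands apart from the other uninjected mice. miR-21 took 22.4% of its reads other than miR-122, against 4.54% in A and 1.70% in C, and the let-7 family with miR-98 took 190194 RPM, against 459689 and 531285 RPM. Over the 215 tested entries, Spearman's rho was 0.907 to 0.970 among the day 0 mice, 0.937 to 0.951 among the early mice and 0.917 to 0.975 between the groups, as a description of libraries that share preparation and the same abundant entries. Without mouse B the median log2 fold change of all entries, described below, was 0.61 against 0.40, and single values that move most without it are given both ways. Medians of lists without mouse B are to be read beside that 0.61. Leaving out mouse C moved several of the same entries the other way.

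Of the 479 listed entries, 215 other than miR-122 had a mean of at least 10 RPM over the 6 libraries and were tested with limma on log2(RPM + 1). None passed the adjusted threshold of 0.05 between days 1 to 3 and day 0 (0% of entries tested), and the lowest adjusted p was 0.10, for miR-342. At an unadjusted p under 0.05 there were 11 entries higher in the early mice (5.12%) and 1 lower (0.465%). Most entries leaned upward, as 155 of 215 had a log2 fold change over 0 (72.1%) and the median of all was 0.40. With each library centred on its median log2 ratio the median was 0.07, so values near 0.40 below are those of a typical entry. The log2 fold change exceeded 1 in 36 entries (16.7%) and was under −1 in 4 (1.86%).

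In 20 of the 215 entries all 3 early mice lay above all 3 day 0 mice (9.3%), and in none did all lie below (0%). Among the 146 entries of at least 100 RPM the numbers were 14 (9.59%) and 0. The balance depends on the scaling. With centred libraries 8 entries lay above and 4 below, the latter being miR-183, miR-30e and the 2 copies of miR-365. miR-34a, miR-342 and miR-467c were the 3 entries that lay above under each scaling (per reads other than miR-122, per all reads, and centred). For miR-467c this rests on few reads, as the whole Sfmbt2 cluster (51 listed entries) had 22 to 81 reads in each of the 6 livers. Over all reads miR-467c fell under the minimum of 10 RPM. Without day 0 mouse B, 78 entries of 218 did not overlap, 60 of them higher. Taken 1 by 1, the early livers had 57 (day 1), 101 (day 2) and 59 (day 3) of the 215 entries above the highest day 0 mouse. These are 26.5%, 47% and 27.4%. Below the lowest day 0 mouse there were 13, 5 and 37 (6.05%, 2.33% and 17.2%). Single livers of day 7, counted likewise, gave 65, 81 and 44 above and 21, 26 and 12 below. For entries above, days 1 and 3 thus fell within the day 7 range and day 2 exceeded it. For entries below, day 1 fell within that range, day 2 under it and day 3 over it.

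**Figure D2:**
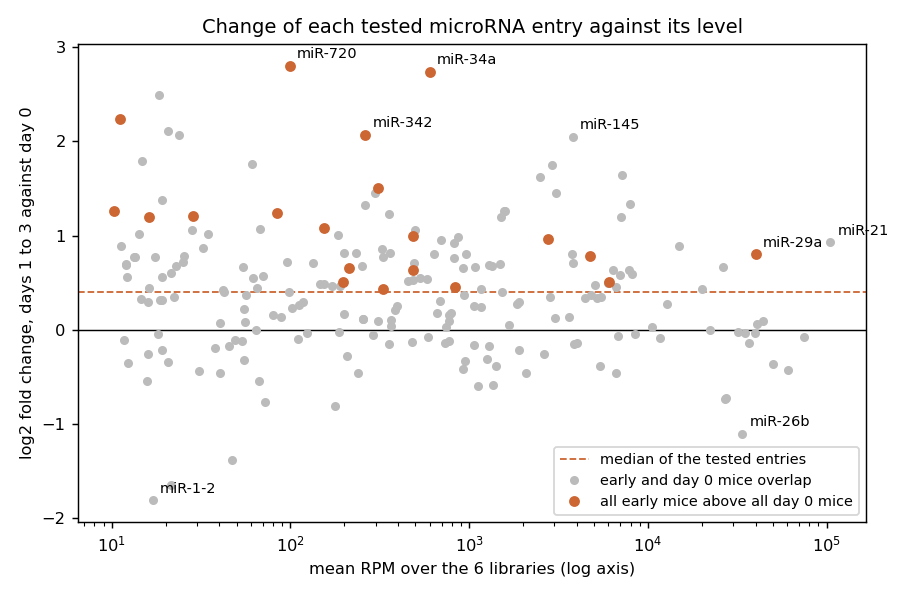
Log2 fold change of days 1 to 3 against day 0 (vertical) for the 215 tested microRNA entries against their mean level in RPM over the 6 libraries (horizontal, log axis). Orange points are the 20 entries whose 3 early mice all lie above the 3 day 0 mice, and the dashed line is the median of all entries, 0.40.

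miR-34a had the largest early difference of any entry above 100 RPM. Its levels were 222, 139 and 76.7 RPM in day 0 mice A, B and C, from 48, 35 and 19 reads. They were 399, 1766 and 1019 RPM at days 1, 2 and 3, from 50, 367 and 282 reads. Each early mouse lay above every uninjected mouse, with levels of 2.74, 12.1 and 6.99 times the day 0 mean. The limma log2 fold change was 2.74 (95% interval 1.33 to 4.15, adjusted p = 0.13), and it ranged from 2.25 to 3.32 over 16 alternatives, with adjusted p from 0.065 to 0.64. The other members of the family, which share the seed shown above, were scarce: miR-34b had 0 to 16.0 RPM and miR-34c 0 to 7.92 RPM in the 6 livers. The summed family took 0.0150% of reads other than miR-122 at day 0 and 0.107% at days 1 to 3.

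The level of miR-34a stayed above that of uninjected mice in livers taken later. At day 7 it was 2245, 1591 and 796 RPM, at day 14 it was 2734, 2284 and 2450 RPM, and at day 21 it was 1522, 1403 and 1257 RPM. The livers of day 45 had 2810, 756 and 304 RPM, the last nearest to the uninjected mice. All of these exceed the day 0 range. Day 7 and days 1 to 3 differed by a log2 fold change of 0.66 (limma adjusted p = 0.99).

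miR-342, an intronic microRNA found in blood cells of lymphoid and myeloid origin, was the second. Its levels were 83.4, 115 and 101 RPM at day 0 and 423, 337 and 513 RPM at days 1, 2 and 3, from 18 to 29 and from 53 to 142 reads. The groups did not overlap, and miR-342 was the entry with the smallest p of all 215. The log2 fold change was 2.07 (95% interval 1.12 to 3.02, limma adjusted p = 0.10), and 1.74 to 2.23 over 16 alternatives, of which none gave an adjusted p under 0.071. At day 7 the levels were 213, 193 and 366 RPM, between the groups or among the early mice.

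Markers of leukocytes were read beside it. The list fixed for these cells includes miR-342 and had 6 of 6 entries with a log2 fold change over 0 and a median of 0.37, against 0.40 for all entries. The 5 markers other than miR-342 were all over 0, with a median of 0.18. The pan-leukocyte miR-142 was 2524, 1996 and 4331 RPM at day 0 and 2715, 3778 and 2758 RPM in the early mice. Myeloid miR-223 was 598, 341 and 335 RPM and then 551, 953 and 412 RPM. Both overlapped between the groups. Lymphocyte miR-150 was 287, 170 and 157 RPM and then 248, 664 and 604 RPM, with a log2 fold change of 1.23 (limma adjusted p = 0.72). Without miR-342 the list summed to 3255 to 5533 RPM at day 0 and 4616 to 6142 RPM at days 1 to 3, so that the groups overlapped, and the part of leukocytes in the miR-342 result was not tested.

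**Figure D3:**
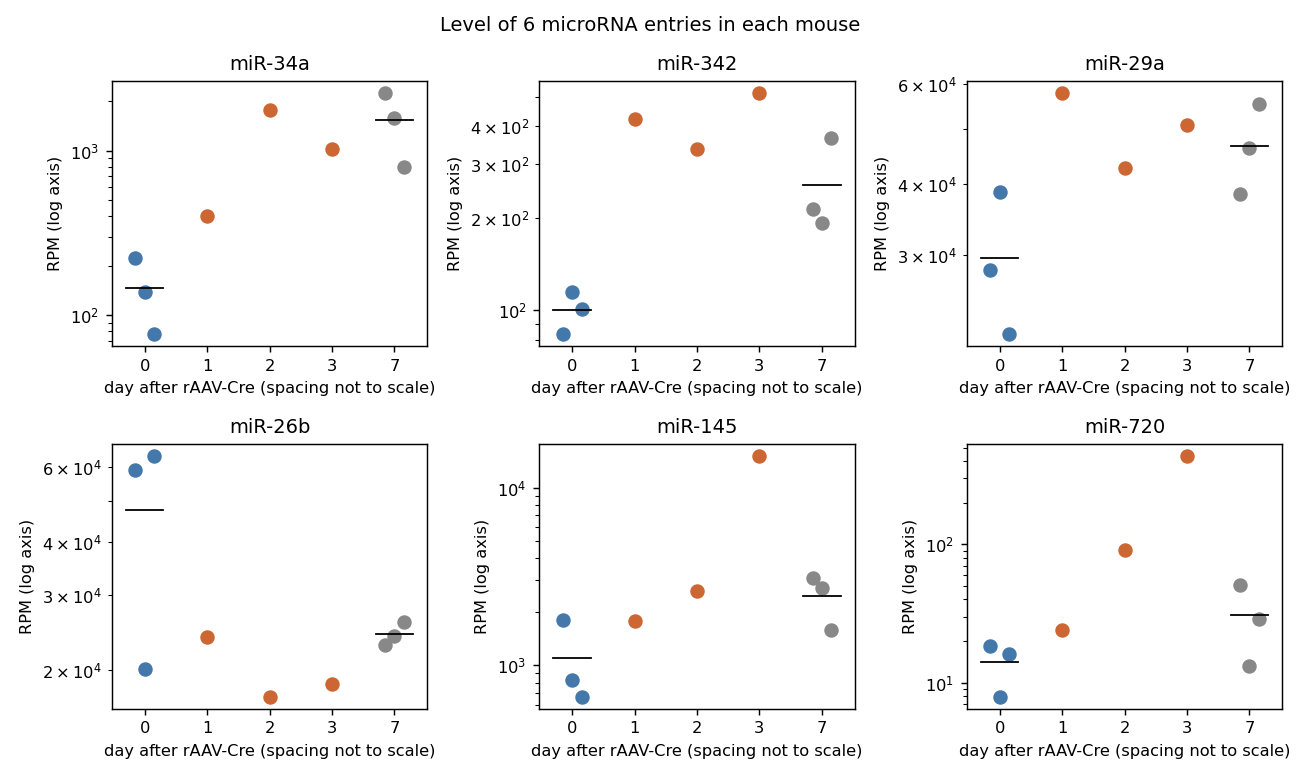
Levels of miR-34a, miR-342, miR-29a, miR-26b, miR-145 and miR-720 in RPM (log axis) by day after rAAV-Cre, with 1 point per mouse and a line at the mean of the 3 mice of day 0 (blue) and of day 7 (grey); days 1, 2 and 3 (orange) are 1 mouse each. The early mice lie above all day 0 mice for miR-34a, miR-342, miR-29a and miR-720.

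A further 6 entries above 100 RPM were among the 8 largest whose groups did not overlap. miR-29a, which represses collagen genes, was by far the most abundant of them, with 28189, 38777 and 21722 RPM at day 0 and 57859, 42620 and 50869 RPM at days 1, 2 and 3. Its mean was 1.71 times higher (log2 0.80, 95% interval −0.03 to 1.63, limma adjusted p = 0.72). miR-125a was 1579, 3014 and 1279 RPM at day 0 and 3482, 3716 and 3484 RPM in the early mice, whose SD was 134 RPM (n = 3). miR-15b, of the family that restrains the cell cycle, was 2779, 3330 and 4290 RPM at day 0 and 5175, 4794 and 8179 RPM afterwards. miR-484 was 403, 309 and 262 RPM and then 599, 578 and 759 RPM. miR-214, made with miR-199a in fibroblasts and stellate cells, was 125, 119 and 60.5 RPM and then 200, 202 and 213 RPM. miR-1839 was 264, 202 and 56.5 RPM and then 703, 337 and 296 RPM. The adjusted p of these 6 was 0.72 to 0.82, and with centred libraries only miR-125a of them still did not overlap.

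The families behind these entries were looked at as a whole. All 4 miR-29 entries had a log2 fold change over 0, with a median of 0.63, and the family sum was 60288, 112359 and 37426 RPM at day 0 against 102326, 111611 and 93277 RPM in the early mice. Mouse B exceeded every early mouse, so the groups overlapped. Without it the median of the family was 1.12. All 7 entries of the miR-15 family were over 0 (median 0.59, or 1.05 without mouse B), with none past the test. The 9 entries of the miR-17 and miR-106b clusters, which promote proliferation, had a median of 0.10 with 6 over 0. Without mouse B it was 0.55, where the median of all entries was 0.61. The miR-30 family had a median of 0.23, with 5 of 6 over 0, and of 0.48 without mouse B. Leaving out mouse C instead lowered several members, to 0.20 for miR-29c, −0.35 for miR-29b-2 and −0.07 for miR-15a. In that setting miR-30b was −0.19 and miR-30c-2 −0.09, while miR-15b rose to 0.95.

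The abundant let-7 family overlapped between the groups. It summed with miR-98 to 459689, 190194 and 531285 RPM at day 0 and to 403912, 247941 and 339904 RPM at days 1, 2 and 3, with a median log2 fold change of −0.04 and 2 of 11 entries over 0. let-7a-2 gave a difference of −0.08 (95% interval −1.16 to 1.01), which holds changes of more than log2 1 in either direction. For let-7f-2 the levels were 88296, 32144 and 94871 RPM and then 63106, 36984 and 47677 RPM. In both entries mouse B was the lowest of the 6 livers. Without it the log2 fold change was −0.93 for let-7f-2 (limma adjusted p = 0.12, against −0.42 with it) and −0.64 for let-7a-2 (adjusted p = 0.29), and the median of the family was −0.50. Without mouse C let-7a-2 was 0.32 and let-7f-2 was −0.15.

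miR-26b was the only entry lower in the early mice at an unadjusted p under 0.05. Its levels were 59116, 20081 and 63781 RPM at day 0 and 23926, 17298 and 18488 RPM at days 1, 2 and 3. Mouse B fell among the early mice, and the other uninjected livers were far above them. The log2 fold change was −1.10 (95% interval −2.14 to −0.06, limma adjusted p = 0.72). Without mouse B it was −1.64 with an adjusted p of 0.037, the single call of an early difference in any alternative. Without mouse C the log2 fold change of miR-26b was −0.81. With its near copy miR-26a, which has the same seed, the sum was 146819, 42745 and 169561 RPM at day 0 and 69271, 43270 and 57693 RPM afterwards, again with mouse B apart. At day 7 miR-26b was 22870, 24025 and 25960 RPM.

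miR-21, a microRNA of injury and inflammation, varied widely among the uninjected mice. It was 45364, 223886 and 16959 RPM at day 0 and 60255, 125963 and 156590 RPM at days 1, 2 and 3. The early values lay between those of A and B. The log2 fold change was 0.93 (95% interval −0.76 to 2.62, adjusted p = 0.84), 0.07 without mouse C and 1.93 without mouse B.

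The list of the innate immune response, which includes miR-21, had 6 of 7 entries tested. All 6 had a log2 fold change over 0, with a median of 0.96 (0.98 without miR-21 and 1.44 without mouse B), and none passed the test. miR-146a, a feedback inhibitor of NF-kappaB signalling, was 653, 990 and 238 RPM at day 0 and 743, 1555 and 1037 RPM in the early mice. Its log2 fold change was 0.98, with 0.40 without mouse C and 1.43 without mouse B. miR-146b was 9.26, 23.8 and 20.2 RPM and then 39.9, 38.5 and 39.8 RPM, from 11 reads at most, and did not overlap. miR-155 was 64.8, 43.6 and 52.5 RPM and then 55.9, 72.2 and 43.4 RPM, a difference of 0.08 on the log2 scale.

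miR-103 and miR-107, which lower insulin sensitivity in liver, gave the highest median of the lists with more than 1 tested entry, together with miR-33 of cholesterol export. The median was 1.26, 4 of 4 were over 0, and none passed the test. miR-107 was 1311, 3635 and 678 RPM at day 0 and 2715, 5631 and 4352 RPM at days 1, 2 and 3 (log2 1.45, 95% interval −0.03 to 2.94, limma adjusted p = 0.72). The sum of miR-107 and the 2 copies of miR-103 was 2835, 7532 and 1514 RPM at day 0 and 5870, 11089 and 8338 RPM afterwards. Only mouse B overlapped the early mice. Without it the log2 fold change of miR-107 was 2.10 (limma adjusted p = 0.11), and that of the 2 copies of miR-103 was 1.88 and 1.84, against 1.26 for both with it. Without mouse C the log2 fold change fell to 0.89 for miR-107, and to 0.73 and 0.77 for the 2 copies of miR-103. miR-33 was 83.4, 166 and 60.5 RPM and then 104, 226 and 159 RPM.

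A fit of the level against the day over days 0 to 3 (6 mice) called 1 of 215 entries (0.465%), miR-720, and 12 had an unadjusted p under 0.05 (5.58%). The slope of miR-720 was log2 1.57 per day (SE 0.27, adjusted p = 0.045), from 18.5, 7.92 and 16.1 RPM at day 0 to 24.0, 91.4 and 437 RPM at days 1, 2 and 3. The reads behind these values were 4, 2, 4, 3, 19 and 121. The entry miR-720 is known as a fragment of a transfer RNA and not a microRNA, and at day 7 it was 50.5, 13.3 and 28.8 RPM. Without the day 3 mouse, or without day 1, day 2 or day 0 mouse A, no entry was called.

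The next steepest slopes were those of miR-34a (1.20 per day, adjusted p = 0.12), miR-145 (1.15, adjusted p = 0.12) and, among the entries over 100 RPM chosen by the rule, miR-22 (0.87, adjusted p = 0.73). miR-145, a microRNA of smooth muscle and stellate cells, was 1806, 824 and 666 RPM at day 0 and 1773, 2628 and 15079 RPM at days 1, 2 and 3. The day 1 liver lay below mouse A, and the day 3 liver was far above every other. miR-143 is made from the same transcript and did not follow it, with 3965, 6843 and 3677 RPM at day 0 and 8242, 6368 and 3878 RPM in the early mice. There were 0.120 to 0.456 reads of miR-145 for each read of miR-143 in the uninjected livers, 0.215 and 0.413 at days 1 and 2, and 3.89 at day 3. In the livers of days 14, 21 and 45, mouse A of day 45 alone also had both miR-145 and miR-720 above the day 3 liver, with 22919 and 605 RPM.

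miR-22 was 2344, 8510 and 1066 RPM at day 0 and 3442, 13486 and 14064 RPM at days 1, 2 and 3, so that day 1 lay below mouse B. miR-23b, of the cluster with miR-27 and miR-24, was 3752, 7789 and 1953 RPM and then 4496, 10849 and 18773 RPM. Without mouse B the trend fit called 6 entries, miR-145, miR-21, miR-22, miR-23a, miR-23b and miR-720. In the other direction, miR-210, the microRNA of hypoxia, was 199, 289 and 105 RPM at day 0 and 224, 221 and 21.7 RPM at days 1, 2 and 3, the last from 6 reads. Its slope of −0.72 per day had an adjusted p of 0.74. In all, 25 entries had levels in the rising order of days 1, 2 and 3 (11.6%) and 34 in the falling order (15.8%).

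Markers of the other cell types of liver, and of tissues that could be carried along, were compared by list. miR-126 of endothelium was 37749, 42476 and 38189 RPM at day 0 and 52365, 36724 and 36372 RPM afterwards (log2 0.06, 95% interval −0.82 to 0.95). The stellate and fibroblast list had 6 of 6 over 0 with a median of 0.91, and summed to 4670 to 9548 RPM at day 0 and 11590 to 19901 RPM in the early mice, where the highest sum, of day 3, is mostly miR-145. Without miR-145 and miR-214, which are described above, the sums were 5039, 8605 and 3943 RPM and then 9919, 8760 and 4608 RPM, with the day 3 liver among the uninjected ones. The erythroid list summed to 8217, 20782 and 8786 RPM and then to 16922, 16119 and 28308 RPM, with miR-451 of red cells highest at day 3 (26844 RPM). The epithelial miR-200 family of bile ducts had a median of −0.11 with 2 of 5 over 0. Without mouse B it was 0.63, against 0.61 for all entries. The erythroid median was 0.65, and 1.35 without mouse B. Of its entries, miR-144 was 0.02 without mouse C, and miR-451 was at least 0.56 in every alternative. The part of stellate cells and of blood in the results above was not tested.

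Tissues outside the liver left few reads. The muscle list summed to 7, 2 and 23 reads at day 0 and 10, 3 and 3 in the early mice. Pancreas and neuron lists had at most 3 reads in any of the 6 livers.

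**Figure D4:**
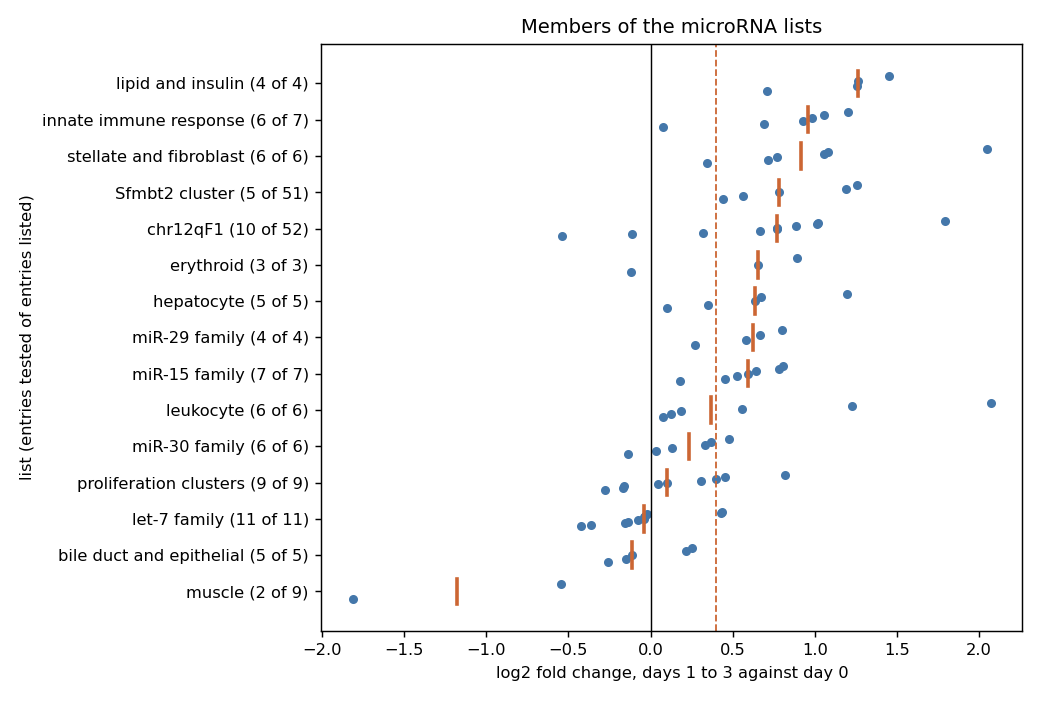
Log2 fold change of days 1 to 3 against day 0 for the tested members of each list (blue points), with the list's median (orange bar), 0 (black line) and the median of all 215 tested entries (dashed line). Names carry the number of entries tested of those listed. Lists with fewer than 2 tested entries are not drawn. Of those drawn, the list of miR-33, miR-103 and miR-107 has the highest median (1.26) and the muscle list, with 2 entries at few reads, the lowest (−1.18).

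The imprinted clusters, which the study follows over the months after miR-122 loss, had few reads. The 52 listed entries of chr12qF1, a maternally expressed cluster of embryonic liver, summed to 61, 76 and 84 reads at day 0 and to 37, 105 and 110 reads at days 1, 2 and 3. This is 283, 301 and 339 RPM and then 295, 505 and 398 RPM, and the day 1 liver lay among the uninjected ones. The ratio of means was 1.30 (log2 0.38, exact two-sided permutation p = 0.3). Of the 52 entries, 10 could be tested and 20 had no read in the 6 livers. Among those tested, 8 had a log2 fold change over 0 (median 0.77, or 1.21 without mouse B) and none passed the test. miR-127 was 92.6, 35.6 and 121 RPM at day 0 and 47.9, 52.9 and 50.6 RPM afterwards, and miR-376a was 88.0, 35.6 and 48.4 RPM and then 47.9, 62.6 and 39.8 RPM. These are the 2 tested entries with a log2 fold change under 0. miR-136 was 18.5, 59.4 and 28.3 RPM at day 0 and 24.0, 164 and 32.5 RPM at days 1, 2 and 3 (log2 0.67), with the day 2 liver above all others. The direction for miR-136 depends on that liver, since the log2 fold change was −0.17 without it, and 1.19 without the day 1 mouse. miR-410 had no read.

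Of the Igf2 and H19 locus, 0 reads of miR-483 or miR-675 were seen in any of the 6 livers, which allows levels of up to 10.8 to 24.0 RPM. The Sfmbt2 cluster, a large array of placental microRNAs, summed to 102, 198 and 109 RPM at day 0 and 256, 260 and 293 RPM in the early mice, with 5 of 51 entries tested and all 5 over 0 (median 0.78). Its near copies cannot be told apart by short reads with mismatches.

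Between days 1 to 3 and day 7 no entry passed the adjusted threshold (0% of 215), and 4 had an unadjusted p under 0.05 (1.86%). The early group serves in both comparisons, so the values are given side by side and not correlated. miR-29a, at 38385, 46351 and 55392 RPM at day 7, and miR-107, at 8005, 6260 and 2293 RPM, had day 7 means close to those of days 1 to 3, with log2 differences of −0.12 and 0.26. miR-342 and miR-125a were lower at day 7 by 0.76 and 0.85 on the log2 scale (limma adjusted p = 0.99 for both), which the spread between mice does not separate from 0.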

How the data were processed

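The authors trimmed the adaptors, aligned small RNA reads to mouse microRNA hairpins with Bowtie 0.12.7 allowing mismatches, and deposited RPM (reads per 1000000) with 1 added to each value. The table lists 479 entries in 42 sample columns, all mapped by their labels. This 1 was subtracted here. What remained at low levels came in whole multiples of a step (100% of 722 values within 0.1 of a step), which gave the number of reads. RPM were rescaled to reads other than miR-122. As PCR copies are not independent molecules, limits for 0 reads (3 reads) cover counting error only.

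Entries with a mean of at least 10 RPM over the 6 libraries were fitted with limma 3.58.1 in R 4.3.3 on log2(RPM + 1), in 1 fit of days 0, 1 to 3 and 7 (9 libraries). The trend was a fit of days 0 to 3 as a number. p-values were adjusted by Benjamini-Hochberg over the 215 entries. Fold changes on this scale understate those of low entries. Shares were compared with exact two-sided permutation tests. The fit was tested on simulated data. Each library is 1 mouse. Since each early day is 1 mouse, the early group's spread holds the differences between days. The sequencing run of each library is not given in the sources used here.

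Members, lists and tests were chosen with earlier results of these data known. Entries named are those past the threshold, the 8 largest in each direction at 100 RPM or more whose groups did not overlap, the 10 most abundant at day 0, the 3 most abundant of each list, those the study names, and the 3 steepest slopes each way at 100 RPM or more. Entries outside this rule (miR-23a, miR-23b, miR-26a, miR-30e, miR-33, miR-146b, miR-148a, miR-150, miR-183, miR-365 and miR-802) were chosen with their values in view. The mature sequences were read from RefSeq, which had a hairpin for 185 of the 215 tested entries. RNA-seq was not used, as no early liver had it.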

Additional observations from a re-analysis of the deposited data

How the results depend on the processing

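Of 16 alternatives to the comparison of days 1 to 3 with day 0, 15 called 0 entries and 1 (without day 0 mouse B) called 1, miR-26b, so that leaving out 1 mouse gave 0 to 1. The number at an unadjusted p under 0.05 ran from 5 to 43. The comparison with day 7 gave 0 calls in all 15 alternatives. The trend fit, with 1 call, gave 0 without a filter on low values and 0 at 100 RPM or more, where miR-720 (99.2 RPM) was not tested, 3 over all reads including miR-122 (miR-145, miR-34a and miR-720), 2 with centred libraries (miR-34a and miR-720), and 0 to 6 when 1 mouse was left out. The main setting had 20 entries without overlap. Over all reads including miR-122 there were 4, where the minimum of 10 RPM left 178 entries. Of the same 215 entries 7 then lay above, 5 of them among the 20. With centred libraries there were 12, of which 8 lay above, 7 of them among the 20, and 4 below. When 1 mouse was left out there were 31 to 78, where fewer mice can overlap. The log2 ratio of the miR-122 share ran from −0.23 to 0.066 when 1 mouse was left out. It turned its sign without day 0 mouse A (0.019) and without the day 3 mouse (0.066), and was −0.0046 as reads per other read. The log2 ratio of the chr12qF1 sum kept its sign, from 0.17 to 0.55 without 1 mouse. The median log2 fold change of all entries was 0.07 to 0.61. Of 59 named entries, 33 kept their sign in all alternatives and 26 changed it in at least 1 without a call. No paired analysis was possible because the early mice carry no replicate letter that the day 0 mice share. With 3 mice on each side the shares cannot reach a permutation p under 0.1, and the day 1 library, with 125218 reads other than miR-122, sets the limit for scarce entries.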

Other observations

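The hepatocyte-enriched microRNAs other than miR-122 varied widely from liver to liver within both groups. miR-148a, which represses the LDL receptor in hepatocytes, was 347, 2047 and 190 RPM at day 0 and 1086, 5126 and 293 RPM at days 1, 2 and 3. The day 2 liver was the highest and the day 3 liver lay among the uninjected ones. miR-802, which is enriched in liver and rises in obesity, was 950, 440 and 779 RPM at day 0 and 2308, 1608 and 354 RPM at days 1, 2 and 3, in falling order. miR-192, shared with gut and kidney, was 32001, 68652 and 29104 RPM and then 50847, 54677 and 28218 RPM. All 5 tested entries of this list had a log2 fold change over 0 (median 0.64 against 0.40 for all entries), with none past the test and with the groups overlapping in each.

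A few entries with an unadjusted p under 0.05 fell outside the rule for naming and are given here after their values were seen. miR-31 was 741, 3081 and 601 RPM at day 0 and 3059, 4635 and 2834 RPM in the early mice, so that mouse B alone reached into the early range. miR-339 was 144, 297 and 68.6 RPM and then 224, 577.6 and 473 RPM. miR-551b rested on 1 to 5 reads in each day 0 liver and on 6 to 7 in each early liver. All 3 had a limma adjusted p of 0.72. At day 7, miR-706 was higher than at days 1 to 3 by 2.07 and miR-1198 by 1.39 on the log2 scale, each with an adjusted p of 0.99.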
